A study of Mus musculus with 30 samples.

Results

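Sqle, Lss and Cyp51 encode the enzymes that carry squalene through its epoxide to lanosterol and on through the first demethylation. They were measured in the livers of 14 germfree and 16 conventional C57BL/6J mice. Germfree mice had been raised without microbes and conventional mice with them. Both groups had eaten a high-fat diet for 11 weeks and had gone 10 h without food when killed, and the labels used here give no age, sex, cage or batch. Total liver RNA was hybridized as biotin-labelled cRNA to an Illumina single-colour mouse array, with 1 array for each animal. The members were all probes annotated to the 3 genes with a detection p-value under 0.05 on at least 7 of the 30 arrays. The detection p-value compares a probe with the negative control beads. All 4 annotated probes met the rule, out of 24613 probes on the array, of which 10525 met it, so they stand for 3 of 15967 named genes. Sqle had 2 probes, Lss 1 and Cyp51 1. The members were thus chosen by their detection on these arrays, which is given only as a description. The Sqle probe ILMN_2600348 was detected on 24 arrays, in 14 of 14 germfree and 10 of 16 conventional livers, and the other 3 probes were detected on all 30.

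Squalene epoxidase (Sqle) is a membrane flavoenzyme of the endoplasmic reticulum that adds oxygen to squalene and is a control point of the pathway. Lanosterol synthase (Lss) folds the epoxide into the sterol ring system, and the cytochrome P450 Cyp51 removes a methyl group from lanosterol. The liver is a main site of cholesterol synthesis, and the genes are transcribed under SREBP2, a membrane-bound factor that is released when sterols in the endoplasmic reticulum run low. The design asks how hepatic expression differs without a gut microbiota, and its title names cholesterol metabolism.

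No difference in array quality passed between the groups. Mean raw signal was 247 ± 73.6 in germfree livers and 245 ± 67.4 in conventional livers (SD, n = 14 and 16, permutation p = 0.938, two-sided). The array of conventional liver 6 stood apart, with a mean raw signal of 85.5, and it had the lowest signal of all 4 member probes among conventional livers. The hepatocyte markers Apoa1 and Ttr were detected in all livers, while the probes of Alb and Tat were below the detection filter. Of 6 hepatocyte markers tested Ahsg rose, by 0.27 on the log2 scale, and 5 did not pass, among them Trf (0.23), with a list median of 0.09. Clec4f and C1qa, markers of the liver's resident macrophages, had log2 changes of -0.48 and -0.41 and fell (adjusted p = 0.00202 and 0.00447 by limma), and all 7 macrophage markers tested had a change below 0. Summed over the 7, the normalized signal was 577 to 1060 intensity units in germfree and 710.5 to 1433 in conventional livers. In lists of 2 to 5 tested markers, the bile duct marker Sox9 and the adipocyte marker Plin4 fell (-0.83 and -0.69), and the stellate marker Reln rose (0.35). Beside them, Krt7 of bile duct (0.07), Adipoq of adipocytes (-0.21), and Dcn (0.22) and Lrat (-0.08) of stellate cells did not pass. Of 5 endothelial markers Stab2 rose (0.47) and 4 did not pass, among them Lyve1 (-0.49), with a list median of -0.03. The acinar marker Cela2a rose by 1.496 ± 0.18 (limma, adjusted p = 1.31e-06), while Cela1 had a change of 0.23 and did not pass. The probes of the acinar markers Ctrb1, Prss1 and Cpa1 were below the detection filter. The part of these cells in the results was not tested. In whole liver, fewer cells of a type and less RNA per cell cannot be told apart.

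All 4 member probes were higher in germfree liver, and in each of them no germfree liver lay below the conventional mean. Over the 10525 probes tested, 5.73% were called at an adjusted p under 0.05, 3.28% as higher and 2.45% as lower, and 1.42% had every germfree liver over the mean of the conventional group. The genes were grouped with the rise of cholesterol synthesis in these livers already known, so these counts describe the genes and are not independent evidence. Signals are given as normalized values on the log2 scale, and changes as germfree minus conventional with the SE of limma's moderated fit. Group membership accounted for 49.9% to 59.2% of the variance of the 4 probes, against a median of 3.13% over all tested probes. The ranges of the groups overlapped in all 4 probes, while 0.019% of all tested probes were higher in germfree liver without any overlap.

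The brighter Sqle probe, ILMN_2737163, ran from 8.47 through a median of 9.21 to 10.18 in germfree livers, against 5.63, 7.66 and 9.26 in conventional livers. Of the 16 conventional livers, 12 lay below every germfree liver, and 6 germfree livers lay above every conventional one. The 4 conventional livers inside the germfree range were numbers 1, 2, 10 and 11. The change was 1.69 ± 0.29, or 3.22-fold, and it ranked 1 among the 10525 probes by signed size (limma, adjusted p = 0.000253).

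The second Sqle probe, ILMN_2600348, was dimmer and ran from 5.49 through 6.12 to 6.82 in germfree livers, against 4.33, 5.18 and 6.57 in conventional livers. Here 1 germfree liver exceeded all conventional ones and 3 conventional livers lay within the germfree range. Its change was 0.98 ± 0.17 (limma, adjusted p = 0.000322). In 6 conventional livers this probe was not above background, so the size is approximate, and it was 0.51 without background correction. Both probes of the gene were higher in germfree liver, with unlike sizes.

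Lss, the cyclase, had a range of 6.76 to 8.44 with a median of 7.25 in germfree livers, against 5.97 to 7.03 with a median of 6.45 in conventional livers. All 16 conventional livers lay below the germfree median, and 11 germfree livers lay above every conventional one. The highest germfree livers were numbers 5 and 10, at 8.44 and 8.15. Lss changed by 0.86 ± 0.14, or 1.82-fold (limma, adjusted p = 0.000194).

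Cyp51, the demethylase, ran from 7.86 through 8.20 to 8.65 in germfree livers, against 6.04, 7.21 and 8.14 in conventional livers. Of the 3 genes it had the largest share of variance between groups (59.2%), with 12 germfree livers above every conventional one and 13 conventional livers below every germfree one. Cyp51 changed by 1.07 ± 0.16, or 2.10-fold (limma, adjusted p = 3.17e-05).

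**Figure D1:**
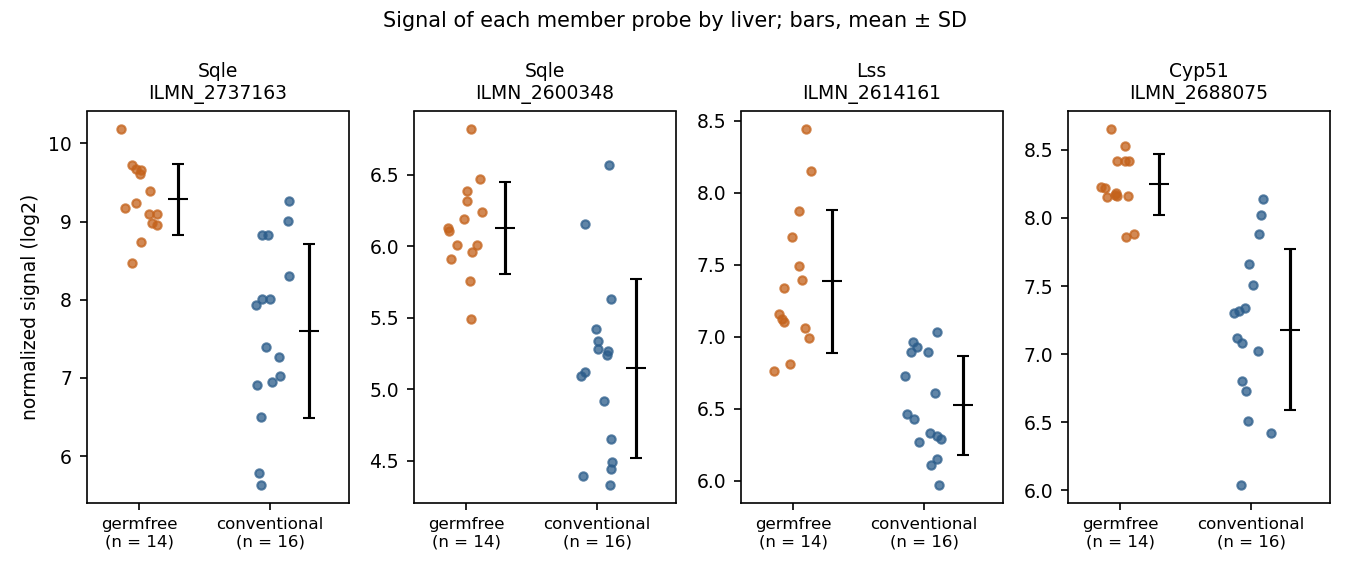
Normalized signal (log2, vertical axis, a separate scale in each panel) of the 4 member probes in 14 germfree (left, orange) and 16 conventional (right, blue) livers, with 1 point for each liver and black bars for the mean ± SD. Sqle (ILMN_2737163) reaches down to 5.63 in conventional livers but not below 8.47 in germfree livers, and Lss alone among the 3 genes is more widely spread in germfree livers.

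Because the members moved together, the promoter windows of Lss and Cyp51 are shown, taken from RefSeq for the mouse assembly GRCm38.p6; 2 of the 3 genes matched an entry of the table. Each window runs 5′ to 3′ on the gene's strand from 250 bases before to 50 bases after an annotated start. Capitals mark matches on either strand to TCACNNCA, the core shared by several sterol regulatory elements, and to CCAAT, the box bound by NF-Y, a usual partner of SREBP2.
Lss, chr10:76531355-76531654, plus strand: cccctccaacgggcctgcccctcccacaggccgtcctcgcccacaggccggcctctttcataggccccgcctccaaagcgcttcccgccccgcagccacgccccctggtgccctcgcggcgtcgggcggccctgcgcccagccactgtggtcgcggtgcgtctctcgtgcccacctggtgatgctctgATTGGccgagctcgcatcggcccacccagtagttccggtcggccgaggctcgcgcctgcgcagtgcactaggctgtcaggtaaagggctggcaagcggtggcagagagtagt
Cyp51, chr5:4104648-4104947, minus strand: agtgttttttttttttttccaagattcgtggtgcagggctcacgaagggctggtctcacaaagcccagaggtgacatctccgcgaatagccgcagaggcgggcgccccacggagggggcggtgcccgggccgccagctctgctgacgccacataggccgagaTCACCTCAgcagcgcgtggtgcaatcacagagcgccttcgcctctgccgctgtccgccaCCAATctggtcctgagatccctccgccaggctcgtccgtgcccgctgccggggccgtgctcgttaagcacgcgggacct
The Cyp51 window holds TCACCTCA from base 163 and CCAAT from base 222 of the window. The Lss window holds no match to TCACNNCA and 1 match to CCAAT, read on the opposite strand as ATTGG from base 189. Among 32544 promoter windows of the same length, 13.8% hold TCACNNCA and 37.4% hold CCAAT. The GC box GGGCGG occurs in both windows (35.9% of all windows), and the core TGACG of the cyclic AMP response element occurs in that of Cyp51 (20.9% of all windows). These matches are letters in a window and describe neither binding nor its absence.

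The rise was not of equal size across the probes. Within animals, the change of Sqle (ILMN_2737163) exceeded that of Lss by 0.82 on the log2 scale (95% interval 0.29 to 1.36, 3 pairs compared, permutation p = 0.00322, adjusted p = 0.00483). It exceeded that of Cyp51 by 0.62 (0.25 to 0.99, permutation p = 0.00179, adjusted p = 0.00483). In both pairs each of the 14 germfree livers had a larger difference than the conventional group on average. Cyp51 and Lss were not told apart, with a difference of 0.21 (-0.12 to 0.53, permutation p = 0.204). Compared in the same way, the change of the brighter Sqle probe exceeded that of the dimmer one by 0.7 (0.32 to 1.09, permutation p = 0.00057). A gap in size between genes can therefore not be told apart from a gap between probes. The order by size rests on the brighter Sqle probe; the change of the other one, 0.98, was smaller than that of Cyp51 and, at 0.51 without background correction, also smaller than that of Lss (0.61). That dimmer probe was detected in only 10 of 16 conventional livers, so its sizes and its gap to the brighter probe are approximate.

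Conventional livers differed from one another far more than germfree livers did in Sqle and Cyp51. In Sqle (ILMN_2737163) the SD was 0.45 in germfree and 1.11 in conventional livers, and the highest liver exceeded the lowest 3.27-fold in germfree and 12.4-fold in conventional livers. The mean absolute deviation from the group median was 0.35 in germfree and 0.92 in conventional livers (permutation p = 0.00198, adjusted over the 4 probes 0.00792, two-sided). In Cyp51 the SD was 0.22 in germfree and 0.59 in conventional livers, and the highest liver exceeded the lowest 1.72-fold in germfree and 4.28-fold in conventional livers. Its mean absolute deviation was 0.17 in germfree and 0.47 in conventional livers (permutation p = 0.00456, adjusted 0.00912).

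Lss ran the other way. Its SD was 0.50 in germfree and 0.34 in conventional livers, a difference in spread that did not pass (0.38 against 0.29 mean absolute deviation, permutation p = 0.360). The dimmer Sqle probe had an SD of 0.32 in germfree and 0.63 in conventional livers and did not pass either (permutation p = 0.0653). Over all tested probes the ratio of conventional to germfree SD had a median of 1.01, and 0.466% and 0.371% of probes had a ratio at least as large as Sqle (ILMN_2737163) and Cyp51. Without conventional liver 6 the difference in mean absolute deviation was -0.48 for Sqle and -0.25 for Cyp51 (permutation p = 0.00788 and 0.0112). Of the 13 other tested enzymes of the pathway, 9 had a larger SD in conventional livers, beside 51.2% of all tested probes. Msmo1 was among the 9, at 0.36 in germfree and 0.62 in conventional livers, while Idi1 ran the other way, at 0.56 in germfree and 0.38 in conventional livers. Some of the 13 lay near background, where the spread is approximate. Idi1 was detected in 12 of 14 germfree and 7 of 16 conventional livers. Mvd, among the 9, was detected in 2 and 7, and Sc5d, which ran as Idi1 did, in 6 and 1.

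**Figure D2:**
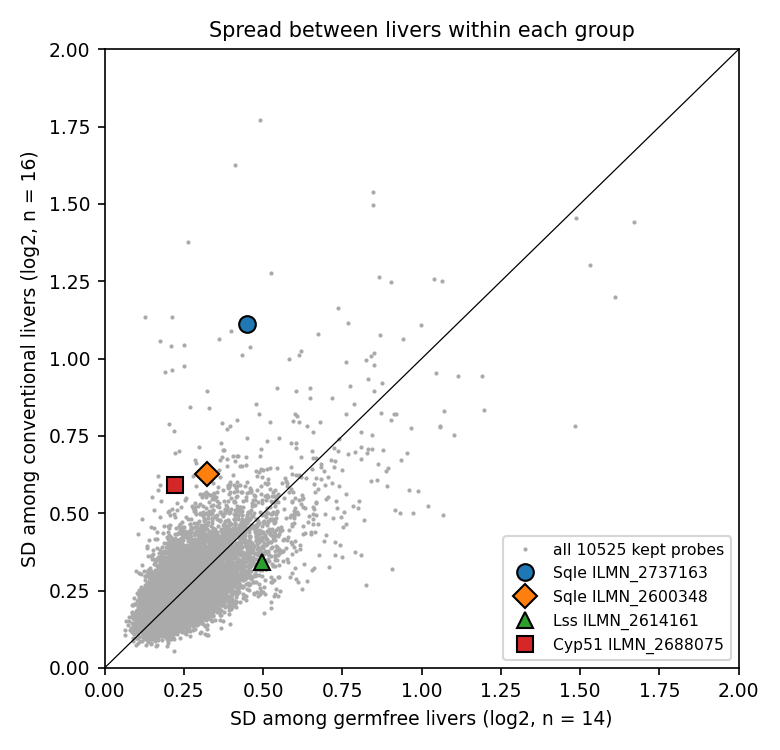
SD between germfree livers (horizontal axis, log2, n = 14) against SD between conventional livers (vertical axis, log2, n = 16) for each of 10525 tested probes (grey), with the member probes as large symbols and a line of equal spread. Both Sqle probes and Cyp51 lie above the line, Sqle ILMN_2737163 at 0.45 and 1.11, and Lss lies below it at 0.50 and 0.34.

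Across animals of the same group the 3 genes varied together, although some correlations with Lss did not pass with other livers or another probe. Sqle and Cyp51 were the closest pair, with r = 0.73 in germfree livers (rho = 0.77, n = 14, permutation p = 0.00256 and 0.00212) and r = 0.93 in conventional livers (rho = 0.92, n = 16, permutation p = 1e-05 for both, the smallest that 100000 permutations give). Adjusted over the 8 correlations computed between member probes, these were 0.00683 and 0.00565 in germfree and 8e-05 and 4e-05 in conventional livers. Without the 2 livers farthest from the Sqle median, r was 0.67 in germfree and 0.89 in conventional livers. Conventional livers 6, 5 and 14 were the lowest in both genes, and livers 1, 10 and 11 were the highest in Cyp51 and among the 4 highest in Sqle.

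Sqle and Lss had r = 0.66 in germfree livers (rho = 0.71, permutation p = 0.0103 and 0.00622, adjusted 0.0137 and 0.00995) and r = 0.69 in conventional livers (rho = 0.70, permutation p = 0.00367 and 0.00326, adjusted 0.00734 and 0.00652). Without the 2 farthest livers r was 0.54 in germfree livers, where the relation no longer passed (permutation p = 0.0698) and so rests in part on those livers, and 0.60 in conventional livers. With the dimmer Sqle probe r was 0.39 in germfree livers (permutation p = 0.169) and 0.65 in conventional livers (permutation p = 0.00581). Cyp51 and Lss had r = 0.59 in germfree livers (rho = 0.64, permutation p = 0.0264 and 0.0162, adjusted 0.0302 and 0.0215) and r = 0.64 in conventional livers (rho = 0.59, permutation p = 0.00842 and 0.0188, adjusted 0.0135 and 0.0215). This pair passed in neither group without the 2 farthest livers (r = 0.42 in germfree and 0.48 in conventional livers, permutation p = 0.173 and 0.0803). Germfree livers 5 and 10 were among the 5 highest in all 3 genes, and germfree liver 13 was among the 3 lowest in each.

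The 2 Sqle probes followed each other with r = 0.53 in germfree livers (rho = 0.60, permutation p = 0.0491 and 0.0262, adjusted 0.0491 and 0.0262) and r = 0.91 in conventional livers (rho = 0.96, permutation p = 3e-05 and 1e-05, adjusted 0.00012 and 4e-05). Without the 2 farthest livers r was 0.62 in germfree and 0.90 in conventional livers. A difference in correlation between the groups did not pass for any of the 3 gene pairs; the widest was that of Sqle and Cyp51, where r in germfree livers minus r in conventional livers was -0.20 (permutation p = 0.0893, adjusted over the 3 pairs 0.268). The correlation of the member genes with the mean raw signal of the array was 0.42 to 0.51 in conventional livers and -0.30 to -0.02 in germfree livers (Pearson, 12 relations with array quality, lowest adjusted permutation p 0.289; Spearman rho 0.34 to 0.37 and -0.35 to -0.06, lowest adjusted p 0.509).

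**Figure D3:**
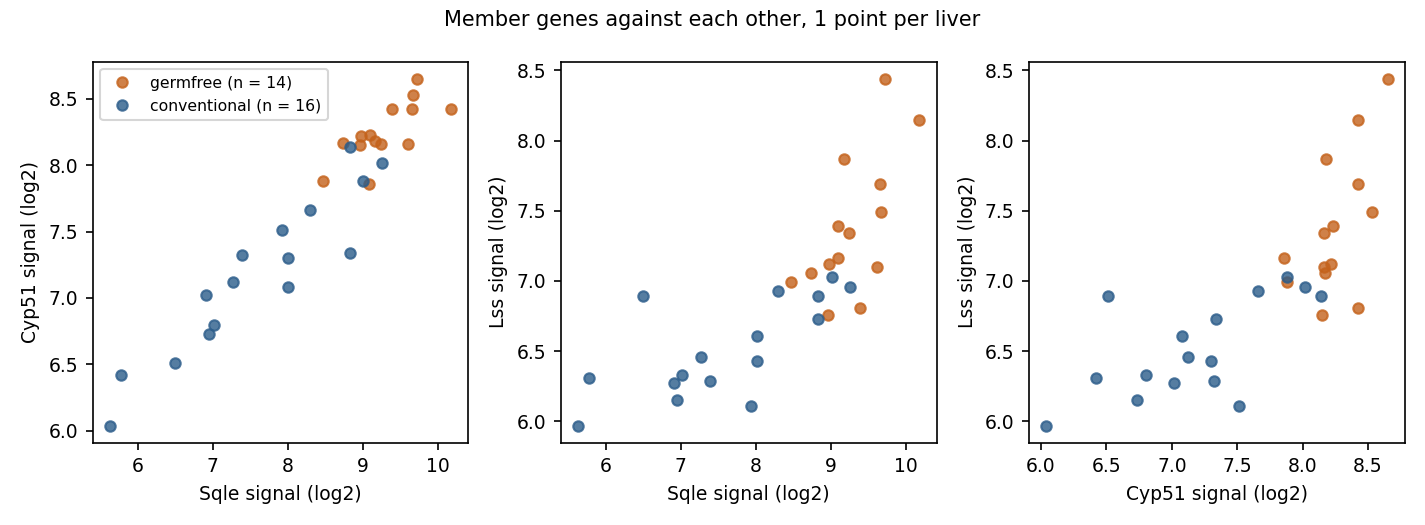
Normalized signals (log2) of Sqle (ILMN_2737163), Lss and Cyp51 against each other, with 1 point for each of 14 germfree (orange) and 16 conventional (blue) livers. Sqle and Cyp51 rise together within each group (r = 0.73 in germfree and 0.93 in conventional livers). Lss climbs to 8.44 in germfree livers and stays at or below 7.03 in conventional ones.

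Ranked by the mean of the 2 within-group Pearson r over 7839 other named genes, Cyp51 was the gene most like Sqle (mean r 0.83) and Sqle the gene most like Cyp51. Lss ranked 5 for Sqle and 10 for Cyp51. Outside the members, the genes most like Sqle were Hmgcs1 (0.73), the synthase at the head of the pathway, Nsdhl (0.73) and Msmo1 (0.69), which remove further methyl groups from the sterol ring, Pmvk (0.65) and the retinol dehydrogenase Rdh11 (0.63). The genes most like Cyp51 were Tm7sf2 (0.75), the reductase that acts on its product, Nsdhl (0.75), Msmo1 (0.74), the glycolytic aldolase Aldoc (0.69) and Hsd17b7 (0.64). Those 8 different genes were all higher in germfree liver (limma, adjusted p = 7.33e-06 for Msmo1 to 0.0370 for Pmvk), with changes of 0.80 ± 0.14 for Rdh11 and 0.51 ± 0.11 for Aldoc.

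For Lss the list was more mixed. It held the pathway enzymes Fdps (0.67) and Pmvk (0.66), but was led by Glt8d1 (0.75) and also held the collagen galactosyltransferase Colgalt1 (0.67) and the translocon subunit Sec61g (0.66). Those last 3 genes did not pass between the groups, with changes of -0.09, 0.00 and 0.14. At the other end, the smooth muscle actin gene Acta2 had a mean r of -0.71 with Sqle and -0.61 with Cyp51, and Krt23 (-0.71) and Mgp (-0.61) were also lowest with Sqle; none of the 3 passed between the groups. The lowest with Lss were Ube2n (-0.68), Kat2a and N4bp2 (both -0.67), and with Cyp51 also Clstn3 (-0.62) and Cnot2 (-0.60). These r values were taken from the ends of a long ranking over 14 and 16 livers on shared arrays, and are given without a test.

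Enzymes on both sides of the 3 members were higher in germfree liver. Of 19 other genes listed from acetoacetyl-CoA to cholesterol, 13 were tested, 10 rose, none fell and 3 did not pass, with a median change of 0.59. Over the 7840 named genes tested, 3.66% rose and 2.59% fell, with a median change of -0.003. This rise was known when the list was drawn up. Fdft1, the squalene synthase just before Sqle, was below the detection filter.

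Before Sqle, Hmgcs1 rose by 1.14 ± 0.18 and Fdps, which makes farnesyl diphosphate, by 1.0 ± 0.17 (limma, adjusted p = 0.000107 and 0.000253). Idi1, the isomerase that feeds Fdps, rose by 0.59 ± 0.16 and was detected in 12 of 14 germfree and 7 of 16 conventional livers, and the mevalonate pathway kinase Pmvk rose by 0.46 ± 0.14.

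Just after Cyp51, the sterol reductases Lbr and Tm7sf2 rose by 0.43 ± 0.08 and 0.38 ± 0.11, less than each of the 3 members (limma, adjusted p = 0.00117 and 0.0358; the differences were not tested). The demethylating enzymes that follow rose by 1.30 ± 0.17 for Msmo1, 0.88 ± 0.18 for Nsdhl and 0.74 ± 0.11 for Hsd17b7. Dhcr7, the last reductase, rose by 0.74 ± 0.12. Ebp (0.13) and Sc5d (0.19) did not pass, and Mvd (-0.09) was detected in 2 of 14 germfree and 7 of 16 conventional livers. Without conventional liver 6 the count of enzymes that rose was 8.

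**Figure D4:**
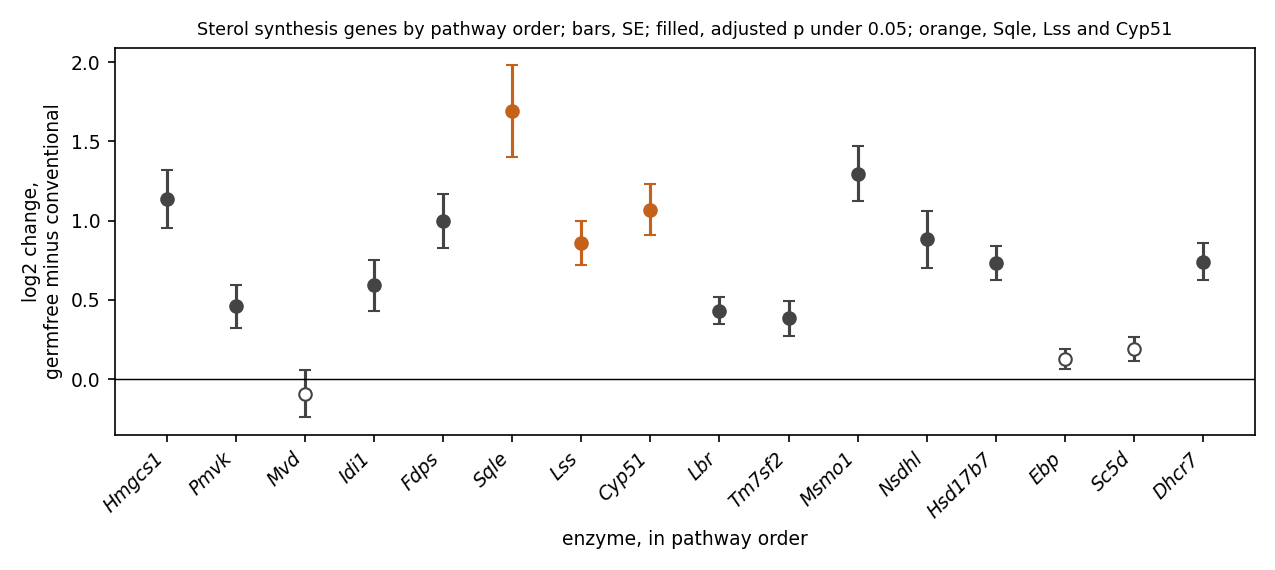
Log2 change (germfree minus conventional, vertical axis) of the 16 tested genes of sterol synthesis in pathway order, with SE bars, 14 germfree against 16 conventional livers; filled symbols have an adjusted p under 0.05 (limma) and orange marks Sqle, Lss and Cyp51. Sqle stands highest at 1.69, and Mvd, Ebp and Sc5d are the open symbols.

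Within groups, the members followed much of this pathway. With deviations from the group means over all 30 livers, Sqle correlated with 8 of the 13 other enzymes, Lss with 10 and Cyp51 with 8 by Pearson r at an adjusted permutation p under 0.05 (180 relations computed over 5 lists), and every one of these was positive. By rho, Hmgcs1, Tm7sf2 and Dhcr7 did not pass with Lss (adjusted permutation p = 0.0936, 0.11 and 0.167), while all those called with Sqle and Cyp51 did. Median r over the 13 was 0.65 for Sqle, 0.50 for Lss and 0.62 for Cyp51. The highest r was that of Cyp51 with Tm7sf2 (r = 0.85, rho = 0.73, permutation p = 1e-05 for both, adjusted p = 0.00045, r = 0.80 without the 2 farthest livers). Sqle followed Msmo1, the enzyme after the sterol reductases, as well (r = 0.78, rho = 0.77, permutation p = 1e-05 for both, adjusted p = 0.00045, r = 0.75 without the 2 farthest livers). Ebp had the lowest or near-lowest r with each member in germfree livers.

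**Figure D5:**
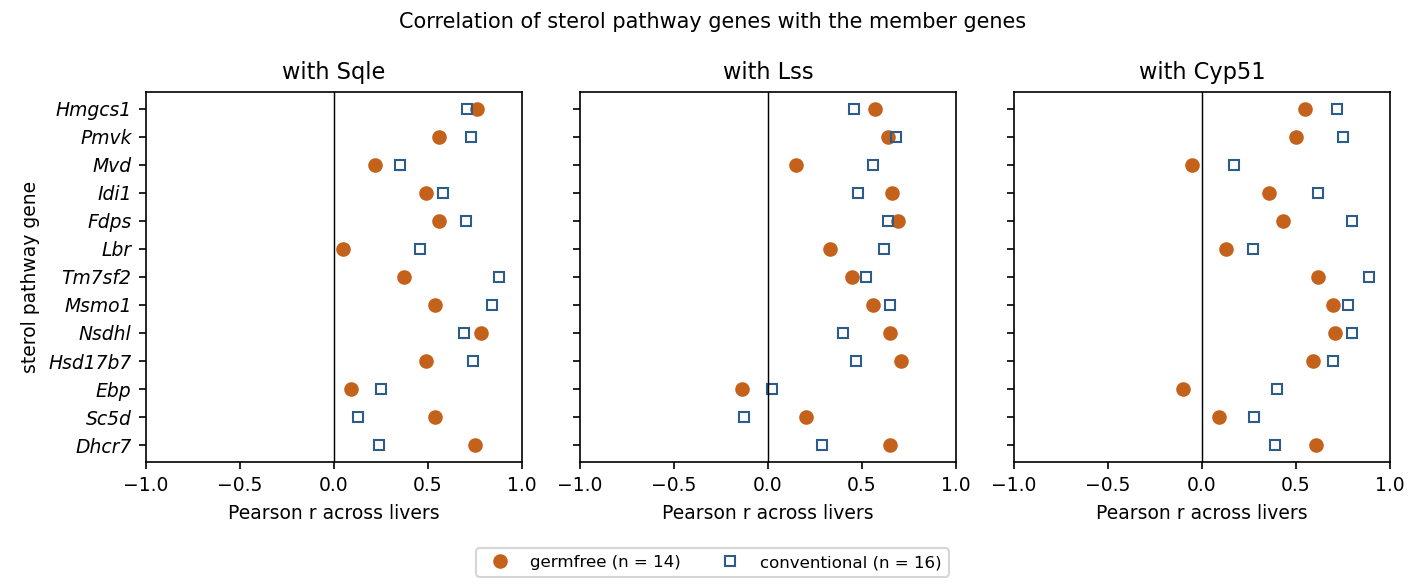
Pearson r (horizontal axis) of 13 sterol pathway genes with Sqle, Lss and Cyp51 across 14 germfree livers (filled orange circles) and 16 conventional livers (open blue squares). Most points lie to the right of 0; Tm7sf2 reaches 0.88 with Sqle and 0.89 with Cyp51 in conventional livers.

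Of the sterol sensors and uptake genes, 11 of 17 were tested (median change 0.16). Of these, 2 rose, beside 3.66% of all named genes tested, and 9 did not pass. Those that rose were Insig1, which holds SREBP2 back in the endoplasmic reticulum and is itself its target, by 0.57 ± 0.10, and the sterol carrier Stard4, by 0.59 ± 0.14 (limma, adjusted p = 0.000471 and 0.00746). Srebf2, which encodes SREBP2, changed by 0.36 ± 0.14 and did not pass (limma, adjusted p = 0.127). Within groups Insig1 followed Cyp51 (r = 0.64, rho = 0.52, permutation p = 0.00062 and 0.00428, adjusted 0.0062 and 0.0335, r = 0.56 without the 2 farthest livers). Srebf2 followed Sqle by r (0.50, permutation p = 0.00213, adjusted 0.0167) but not by rho (0.47, permutation p = 0.0123, adjusted 0.0714), with r = 0.43 without the 2 farthest livers. That r was 0.21 in germfree and 0.72 in conventional livers, a difference that was not tested. Insig1 also followed Sqle by r (0.53, permutation p = 0.00746, adjusted 0.0436) but not by rho (0.40, adjusted 0.141). By group this r was 0.21 in germfree and 0.62 in conventional livers. For Insig1 too, the differences between groups were not tested. Lss followed Erlin1, a membrane protein of the endoplasmic reticulum (r = 0.57, rho = 0.57, permutation p = 0.00126 and 0.00143, adjusted 0.0112 and 0.0172, r = 0.50 without the 2 farthest livers).

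No gene passed among those for the electron donors, helpers and turnover of Sqle and Cyp51. Of 11 such genes 8 were tested and 0 passed (limma; 0 also at an unadjusted p under 0.05), with a median change of 0.01. Cytochrome b5, Cyb5a, had a change of 0.02 ± 0.07, its reductase Cyb5r3 0.07 ± 0.09, and Sec14l2, a cytosolic stimulator of squalene epoxidation, -0.19 ± 0.13. Sec14l4, of the same protein family, had 0.11 ± 0.11, and Pgrmc1, a haem-binding partner of Cyp51, had -0.07 ± 0.14. Marchf6, the ubiquitin ligase that marks squalene epoxidase for breakdown, had -0.01 ± 0.13. None of the 24 correlations of these genes with the members passed. Por, the reductase that feeds electrons to both Sqle and Cyp51, had no named probe.

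Among genes of oxysterol and bile acid synthesis and targets of the sterol receptor LXR, 11 of 16 were tested (median change 0.22). Of these, 3 rose, 1 fell and 7 did not pass, while 3.66% of all named genes rose and 2.59% fell. With median scaling restricted to probes that every array detected 1 gene of the list rose. In a fit that paired livers by label number, 2 genes of the list rose and 0 fell, although the numbers are not shown to pair animals. The sterol exporters Abcg5 and Abcg8 rose by 0.30 ± 0.08 and 0.48 ± 0.14, and Lpcat3 by 0.33 ± 0.09. Cyp8b1, an enzyme of bile acid synthesis, fell, with a change of -0.56 ± 0.15. Within groups Abcg5 ran against Sqle (r = -0.58, rho = -0.51, permutation p = 0.00166 and 0.0055, adjusted 0.0136 and 0.0397, r = -0.51 without the 2 farthest livers). This r was -0.61 in germfree and -0.60 in conventional livers, while both genes were higher in germfree liver. Lss ran against the exporter Abcg1 (r = -0.50, rho = -0.50, permutation p = 0.00912 and 0.00764, adjusted 0.0497 and 0.0491, r = -0.51 without the 2 farthest livers). Cyp7a1, the first enzyme of bile acid synthesis, had r of -0.15 with Sqle, -0.28 with Lss and -0.06 with Cyp51, and none of these passed.

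Of 22 clock and feeding genes 17 were tested (median change 0.20). Of these, 2 rose, 1 fell and 14 did not pass, while 3.66% of all named genes rose and 2.59% fell. Without conventional liver 6, 3 genes of the list rose, and 1 did in a fit that paired livers by label number. Igfbp1 and Ppargc1a rose by 1.37 ± 0.32 and 0.71 ± 0.18, and Scd1 fell, with a change of -0.83 ± 0.20. None of the 17 correlated with Sqle or with Cyp51 past the threshold. Lss correlated with the clock gene Per2 (r = 0.55, permutation p = 0.00261, adjusted 0.0188, r = 0.58 without the 2 farthest livers; rho = 0.43, adjusted 0.104) and negatively with G6pc (r = -0.44, rho = -0.53, permutation p = 0.00824 and 0.00384, adjusted 0.0464 and 0.0314, r = -0.42 without the 2 farthest livers).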

How the data were processed

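Liver RNA of 30 mice was measured on Illumina single-colour arrays. Each deposited array gave an intensity per probe, averaged over beads and not normalized per the file headers, and beside it a deposited detection p-value; GenomeStudio is named in the submitters' processing notes. The authors' deposited value table held the same arrays as linear intensity after quantile normalization, per a comment in the file headers. A further 33 arrays of that file match no sample label and were not used.

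The function neqc of limma (version 3.58.1, under R 4.3.3) subtracted background by normexp, using the detection p-values, added 16, made the arrays equal by quantiles and took log2. Probes detected at p under 0.05 on at least 7 arrays were kept, 10525 of 24613. Symbols came from the platform annotation, 20968 of 20984 matched by gene identifier to RefSeq. All kept probes were compared by limma (lmFit, eBayes, two-sided) with Benjamini-Hochberg adjustment; the procedure was tested on simulated data. Lists used the brightest probe of a gene. Spread, differences of change and correlations used 100000 permutations (Python 3.11.15). Replicates are animals by number; the number of arrays limits the precision.

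The members and lists were chosen with earlier results of these data known. Named genes are the members, the neighbouring enzymes, the up to 4 tested genes of lowest adjusted p in a list, some fixed regulators, and the 5 most and 3 least alike genes of each member. Genes picked out beyond that rule (Idi1, Ebp, Sc5d, Mvd, Cyb5a, Cyp7a1, Per2, Arntl, Clock, Erlin1, Abcg1) were chosen after their values were seen. Alternatives changed background correction, scaling, filter, probe choice, weights, variance model, covariates, pairing and arrays. Values without conventional replicate 6 for spread, correlations, lists and differences of change were added after seeing the data.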

Additional observations from a re-analysis of the deposited data

How the results depend on the processing

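All 4 member probes stayed higher in germfree liver and past the threshold in each of the alternative fits tried and in all 30 fits that left out 1 liver. Over the alternatives the change was 1.33 to 1.69 for Sqle (ILMN_2737163; 1.33 as the mean of both Sqle probes), 0.51 to 0.98 for Sqle (ILMN_2600348), 0.61 to 0.87 for Lss and 0.83 to 1.09 for Cyp51. The lowest values of the last 3 came without background correction. With 1 liver left out the ranges were 1.55 to 1.80, 0.93 to 1.08, 0.78 to 0.91 and 0.99 to 1.13. Over all probes 603 passed; 68 did after median scaling over all probes (the cause was not tested), where the members still passed (limma, adjusted p = 0.00707 to 0.0221), and 527 to 631 with 1 liver left out. The numbers of the labels are not shown to pair animals: same-numbered livers deviated together with a correlation over 0.1 in 7 of 14 pairs, and 2 of 14 germfree livers correlated best with their own number. With the replicate block on the arrays numbered 1 to 14 in both groups the changes were 1.69, 0.96, 0.87 and 1.09, and 488 probes passed, against 476 on the same arrays without it. Under the replicate block 0 genes of the oxysterol and LXR list fell and 1 clock and feeding gene rose; with median scaling restricted to probes that every array detected, 1 gene of the oxysterol and LXR list rose. The correlation of Sqle and Lss in germfree livers was 0.39 with the other Sqle probe (permutation p = 0.169) and 0.54 without the 2 livers farthest from the median. That of Cyp51 and Lss without 2 livers was 0.42 in germfree and 0.48 in conventional livers; having fewer livers lowers what such a test can pass. Without conventional replicate 6 the conventional correlations were 0.91 for Sqle and Cyp51, 0.62 for Sqle and Lss and 0.54 for Cyp51 and Lss, and no call on spread or on differences of change moved. The spread and difference-of-change calls also held without background correction, with the authors' normalized values and with the second median scaling. The Sqle probe ILMN_2600348 lies near background in conventional livers, which limits its size.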

Other observations

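Of the 19 other sterol pathway genes, 15 had a promoter window in the RefSeq table. In these windows TCACNNCA was found for 7 genes, CCAAT for 14, GGGCGG for 13 and TGACG for 6, beside shares of 13.8%, 37.4%, 35.9% and 20.9% over all windows. A gene with several starts was counted once if any of its windows held the letters, so the counts and the shares are not on the same footing.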
